A study of Homo sapiens with 6 samples.

Results

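The 78 genes described here encode proteins of the mitochondrial ribosome and were picked by symbol. They are the rows of a deposited table of 35009 genes whose symbol is MRPL or MRPS, a number and, at most, a letter from A to C. MRPL symbols (49 genes) name the large subunit and MRPS symbols (29 genes) the small one, and no symbol had more than 1 row. Another 32 rows whose names start in the same way were left out, 26 of them pseudogenes and 6 antisense or divergent transcripts. Polyadenylated RNA was sequenced from macrophages made from the human leukaemic monocyte line THP-1, and all 6 libraries were from cells given oxidised low-density lipoprotein (ox-LDL), the particle that turns macrophages of the artery wall into foam cells. The 3 control libraries (oxldl) have the genotype label control. The 3 siMCT4 libraries (oxldl_siMCT4) are labelled as deficient in MCT4, the lactate and proton exporter encoded by SLC16A3. The labels give no differentiation agent, ox-LDL dose or time, and neither a non-targeting siRNA for the controls nor separate cultures for the libraries, so p-values measure the spread between libraries, which may be technical, and an effect of transfection cannot be told apart from that of MCT4 loss.

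The mitochondrial ribosome translates the few mRNAs that mitochondrial DNA encodes, nearly all of them for membrane subunits of the respiratory chain and ATP synthase. Its ribosomal RNAs come from mitochondrial DNA, but its proteins are encoded in the nucleus, made in the cytosol and imported. Some have bacterial homologues and others arose in the mitochondrial lineage. The small subunit decodes mRNA, and the large subunit forms peptide bonds and releases the chain through an exit tunnel at the inner membrane.

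Promoters of genes for mitochondrial proteins often carry sites for NRF1, for ETS factors such as GABP, and for YY1. RefSeq promoter windows of 300 bases, which cover the start and mostly lie before it (GRCh38.p14), were found for 69 of the 78 genes and searched on both strands. The ETS letters CCGGAAGT were in 11 of them (15.9%), against 6.19% of 18596 protein-coding promoters and 4.14% of all 35116 promoters of that length. The genes that held them were not of 1 kind in the comparison below: 3 were called lower (MRPL38, MRPL52 and MRPS34), 1 was called higher (MRPS22), and 7 were not called. The windows of 3 of those 4 called genes are printed because the same letters stand before genes called in opposite directions. After a correction for GC content, given below, MRPL38 and MRPS34 were no longer called. Capitals mark the match, which is on the reverse strand in each and so reads as ACTTCCGG.
MRPL38, chr17:75905060-75905119, minus strand: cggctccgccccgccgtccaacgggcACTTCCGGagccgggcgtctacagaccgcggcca
MRPS22, chr3:139343888-139343947, plus strand: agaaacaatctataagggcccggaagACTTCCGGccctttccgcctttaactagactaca
MRPS34, chr16:1773135-1773180, minus strand: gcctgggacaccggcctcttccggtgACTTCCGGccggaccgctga
The match begins 209 bases before the start in MRPL38, 80 in MRPS22 and 20 in MRPS34. The YY1 letters ATGGCGG were in 24 of 69 windows (34.8%), against 7.84% of protein-coding and 5.55% of all promoters. In 19 of those 24 every match lay past the transcription start, where ATGG can also be the start codon and its next base. The E-box CACGTG, which MYC and MAX bind, was in 6 windows (8.70%; 8.81% of protein-coding and 7.26% of all promoters), and the NRF1 letters CGCATGCG were in 3 (4.35%; 2.77% and 2.02%). These matches are letters in a window and not measured binding.

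Libraries held 61880619 to 69181938 counts, of which the 78 genes took 0.199% to 0.213% in controls and 0.214% to 0.218% in siMCT4. Levels are given as CPM, counts per 1000000 counts of the library after TMM scaling, and changes as log2 of siMCT4 over control. SLC16A3 was at 115, 101 and 108 CPM in controls and 10.8, 11.05 and 13.4 CPM in siMCT4, a log2 change of -3.20 (SE 0.102, adjusted p = 1.12e-06). An exact two-sided permutation test of these 6 values gave p = 0.1, the smallest that 3 against 3 allows. The third siMCT4 library stood apart: the median chi-square per gene against the other siMCT4 libraries was 8.75 and 9.28, while those 2 differed from each other by 2.54 and controls differed among themselves by 3.18 to 4.09. All 10 macrophage markers were detected; 7 fell and 1 rose (median log2 change -0.40), and their summed FPKM was 1633 to 1670 in controls and 1566 to 1657 in siMCT4. Of 3 endothelial markers in the table, which macrophages can also express, PECAM1 and VWF fell. The other had a log2 change of 1.46 and was not called. The sum was 72.0 to 75.5 FPKM in controls and 43.7 to 45.1 in siMCT4. Of 5 fibroblast markers in the table COL1A2 was at 0 counts in controls and in siMCT4 library 3 and at 1892 and 1782 counts in siMCT4 libraries 1 and 2, and the list's summed FPKM was 0.527 to 0.750 in controls and 0.839 to 3.20 in siMCT4. COL3A1 and DCN had at most 5 counts in any library. The 5 epithelial markers summed to 0.0174 to 0.0459 FPKM in controls and 0.0317 to 1.19 in siMCT4, with KRT18 at 172, 112 and 0 counts in siMCT4 libraries 1, 2 and 3 and EPCAM at 4 counts or fewer. Of 7 proliferation genes 6 fell, with a list sum of 61.0 to 64.9 FPKM in controls and 12.9 to 23.4 FPKM in siMCT4. The part of these differences in the results was not tested.

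Expression of the mitochondrial ribosomal proteins did not move in 1 direction. With edgeR's quasi-likelihood test, 19 of the 78 genes fell and 10 rose at an adjusted p under 0.05, and 49 were not called. All 78 had enough counts to be tested. The share called lower, 24.4%, stood beside 20.8% of the 19944 tested genes, and the share called higher, 12.8%, beside 20.6%. In all, 37.2% of the members were called, against 41.4% of tested genes. Changes ran from -1.43 to 1.18 with a median of -0.12, and the median over all tested genes was -0.00637. Control and siMCT4 values did not overlap in 24 genes that were lower in siMCT4 and 12 that were higher, where the shares over all tested genes were 27.8% and 27.2% (55% in either direction). Of the called genes 11 changed at least 1.5-fold and 3 of these at least 2-fold (MRPS6, MRPL44 and MRPS24). Of the 19944 tested genes 4759 were called with at least a 1.5-fold change and 2607 with at least a 2-fold change, larger shares than among the 78 members.

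The balance of rises and falls depended on the scaling, both among the members and over all tested genes. With library totals in place of TMM 12 fell and 16 rose (17.4% lower and 24.8% higher over all tested genes). With limma on log2(FPKM + 1) 10 fell and 18 rose (16.8% and 24.5% over all). On log2(TPM + 1), which moved the median of all genes by 0.14, 7 fell and 22 rose (13.8% and 29.5% over all). DESeq2 called 23 lower and 14 higher (21.6% and 22.1% over all). Without siMCT4 library 3 there were 28 lower and 20 higher (23.1% and 23.5% over all). With that library alone against the controls, where the spread is that of the controls only, the members' median log2 change was -0.15. Calls that held under every one of these choices were fewer: 6 of the 19 falls (MRPL11, MRPL30, MRPL37, MRPS10, MRPS15 and MRPS24) and 5 of the 10 rises (MRPL18, MRPL44, MRPL50, MRPS6 and MRPS31) were called in the same direction under all 18 alternatives.

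**Figure D1:**
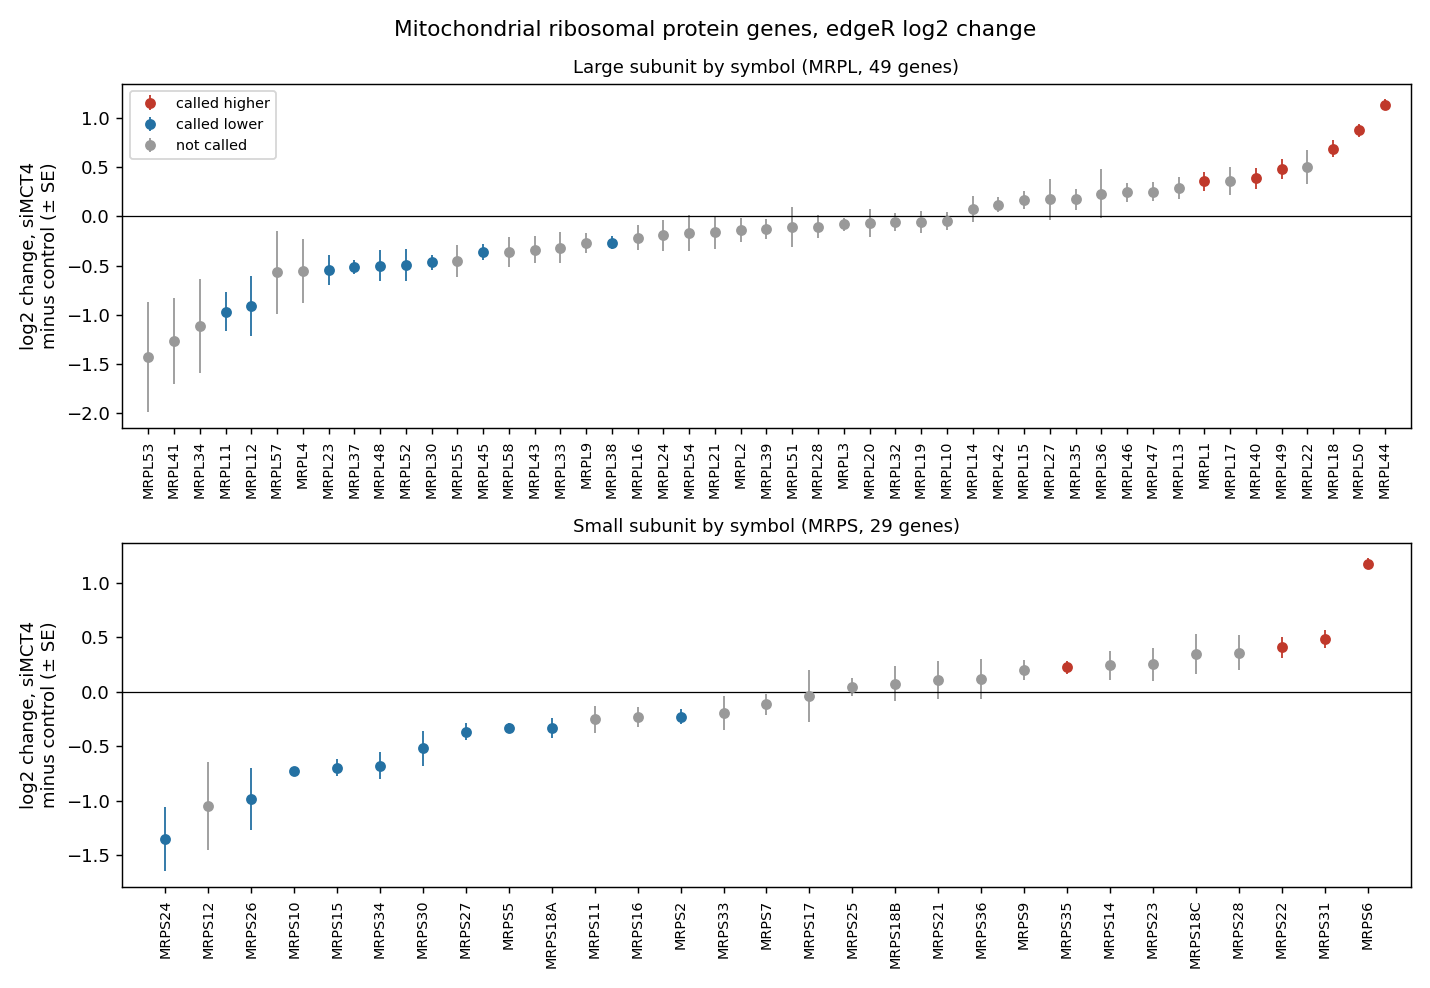
Log2 change (siMCT4 minus control, edgeR) of each of the 49 MRPL genes (upper panel) and 29 MRPS genes (lower panel), ordered by size. Whiskers are standard errors and colours mark genes called higher, called lower or not called at an adjusted p of 0.05; the widest whiskers belong to uncalled genes at the lower end such as MRPL53 and MRPL41.

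Levels between genes were compared as FPKM, which divides by gene length. In controls they ran from 0.782 FPKM (MRPS33) to 92.3 FPKM (MRPL37), with a median of 6.45 FPKM. The most abundant large-subunit mRNAs in controls were MRPL37 at 92.3 ± 1.36, MRPL44 at 31.1 ± 1.54 and MRPL18 at 30.8 ± 1.91 FPKM (SD, n = 3), and the last pair differed by less than their spread. Among the MRPS symbols MRPS10 was at 59.2 ± 1.62, MRPS35 at 25.1 ± 0.224 and MRPS18A, which despite its symbol sits in the large subunit, at 23.8 ± 0.583 FPKM. The lowest levels were those of MRPL48 (1.15 ± 0.161 FPKM) and MRPL46 (1.35 ± 0.108 FPKM) in the large subunit and of MRPS33 (0.782 ± 0.0504 FPKM) and MRPS11 (1.92 ± 0.130 FPKM) in the small one. In siMCT4 MRPL37 averaged 69.6 ± 6.53 FPKM and MRPL44 73.9 ± 2.26 FPKM, a gap within the spread of MRPL37, and MRPL37 was the higher of the pair in library 3 (77.0 against 71.3 FPKM) and the lower in libraries 1 and 2. Summed over the 78 genes, FPKM was 734 to 779 in controls and 789 to 806 in siMCT4. Summed CPM, which is scaled by TMM and does not weight by length, was 2059 to 2195 and 2081 to 2119, and there the groups overlapped. The members' share of all counts has neither TMM scaling nor length weighting. It did not overlap, but by little: the highest control was at 0.2133% and the lowest siMCT4 library at 0.2136%. The separations in summed FPKM and in share of counts depended on MRPS6, whose reads are uncertain for a reason given below. MRPS6 had 5091 to 5439 counts in controls and 12036 to 12919 in siMCT4, with means of 17.1 and 41.8 FPKM.

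In the large subunit 6 genes rose. MRPL44, a mitochondria-specific protein with a ribonuclease III-like fold, lies at chromosome 2, 223957463 to 223967714, plus strand. It stood at 55.6, 59.0 and 61.7 CPM in controls and 131, 131 and 125 CPM in siMCT4. All siMCT4 libraries were at more than the highest control, with a log2 change of 1.14 (SE 0.0547, adjusted p = 6.91e-06). MRPL50, another mitochondria-specific protein (chromosome 9, 101387633 to 101398618, minus strand), was at 19.4, 19.3 and 18.8 CPM in controls and 34.98, 37.1 and 33.6 CPM in siMCT4. Its replicates were tight in both groups and the log2 change was 0.88 (SE 0.0657, adjusted p = 5.19e-05). MRPL18, the homologue of the bacterial protein that binds 5S rRNA in the central protuberance (chromosome 6, 159789812 to 159798436, plus strand), was at 45.8, 50.0 and 45.9 CPM in controls and 81.4, 80.5 and 66.8 CPM in siMCT4. Library 3 was the lowest of the siMCT4 group but above every control, and the log2 change was 0.69 (SE 0.0870, adjusted p = 0.000651).

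The other rises in the large subunit were smaller. MRPL49 was at 22.9, 22.6 and 23.2 CPM in controls and 35.6, 33.3 and 27.0 CPM in siMCT4 (log2 change 0.48, SE 0.105, adjusted p = 0.0086). Library 3 was nearest to the controls (0.26 in a fit of that library alone against them, given without a p-value). MRPL40, a protein of the central protuberance whose gene lies in the 22q11 deletion region, was at 9.97, 11.1 and 10.97 CPM and then 15.3, 12.6 and 14.1 CPM (0.39, SE 0.107, adjusted p = 0.0228). MRPL1, the protein of the L1 stalk near the exit site, was at 11.995, 12.4 and 11.7 CPM and then 13.9, 16.2 and 16.2 CPM (0.36, SE 0.0956, adjusted p = 0.0204). The groups did not overlap in any of these 3 genes. MRPL40 was not called without control library 1 or 3 or siMCT4 library 1 (adjusted p 0.0576 to 0.0739), nor MRPL1 without any 1 control or without siMCT4 library 2 (adjusted p 0.0534 to 0.075).

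Of the MRPL genes 9 fell. MRPL37, a mitochondria-specific protein and the most abundant member in controls (chromosome 1, 54184041 to 54225464, plus strand), was at 265, 262 and 261 CPM in controls and 170, 178 and 204 CPM in siMCT4. The controls lay within a few CPM of each other and library 3 was the highest of the siMCT4 group; the log2 change was -0.52 (SE 0.0689, adjusted p = 0.000864). MRPL11, at the base of the stalk where elongation factors dock (chromosome 11, 66435075 to 66438848, minus strand), was at 10.7, 11.4 and 13.1 CPM in controls and 4.71, 5.39 and 7.80 CPM in siMCT4 (-0.97, SE 0.200, adjusted p = 0.00677). MRPL30 (chromosome 2, 99181152 to 99199561, plus strand), the counterpart of bacterial L30, was at 25.8, 27.4 and 26.6 CPM and then 19.9, 20.3 and 17.5 CPM (-0.47, SE 0.0799, adjusted p = 0.0028). Neither gene's groups overlapped, and library 3 was the highest siMCT4 library for MRPL11 and the lowest for MRPL30.

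MRPL45, which anchors the ribosome at the inner membrane, was at 30.5, 29.4 and 27.1 CPM in controls and 23.8, 21.0 and 23.0 CPM in siMCT4 (log2 change -0.36, SE 0.0787, adjusted p = 0.00863; -0.16 and adjusted p = 0.129 on log2(TPM + 1)). MRPL38 and MRPL48 belong to the central protuberance, and MRPL23 surrounds the exit tunnel. MRPL38 was at 29.8, 29.2 and 31.9 CPM and then 24.7, 25.04 and 25.8 CPM (-0.27, SE 0.0647, adjusted p = 0.0134), but changed sign when GC content was corrected for (0.39, adjusted p = 0.0603). MRPL23 was at 13.2, 11.4 and 15.9 CPM and then 9.41, 10.3 and 8.07 CPM (-0.54, SE 0.154, adjusted p = 0.0255; -0.17 and adjusted p = 0.497 after the GC correction). MRPL48 was at 4.68, 5.70 and 4.53 CPM and then 3.74, 3.57 and 3.23 CPM (-0.50, SE 0.157, adjusted p = 0.0379), and MRPL52 at 12.6, 12.1 and 14.0 CPM and then 9.07, 7.21 and 11.1 CPM (-0.50, SE 0.166, adjusted p = 0.0471). These last 4 calls gave way when certain libraries were left out. MRPL48 lost its call without any 1 of the 6 (adjusted p 0.051 to 0.13) and MRPL52 without any but siMCT4 library 3 (adjusted p 0.0955 to 0.15). MRPL23 lost it without control library 1 or 3 or siMCT4 library 1 (adjusted p 0.0675 to 0.0852), and MRPL38 without control library 3 or siMCT4 library 1 or 2 (adjusted p 0.0575 to 0.0687).

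In the L7/L12 stalk MRPL10 anchors copies of MRPL12, which recruit translation factors, and of these 2 genes only MRPL12 was called. It was at 21.1, 15.4 and 16.7 CPM in controls and 6.42, 7.34 and 14.5 CPM in siMCT4. Libraries 1 and 2 were well below the controls and library 3 just below them (log2 change -0.91, SE 0.305, adjusted p = 0.0467). Its call was lost in 15 of the 18 alternatives, among them the GC correction (-0.34, adjusted p = 0.147) and each fit without 1 library except that without siMCT4 library 3 (-1.34, adjusted p = 0.000236). MRPL10 was at 27.8, 27.9 and 30.7 CPM and then 27.8, 30.6 and 25.1 CPM (-0.05, adjusted p = 0.697) and overlapped. MRPL53, a mitochondria-specific protein near the stalk base, had the lowest fitted value of the 78 (-1.43, SE 0.558) and was not called (adjusted p = 0.0777). Its counts were 520, 556 and 669 in controls and 285, 56 and 338 in siMCT4, with library 2 far below the others. These counts are uncertain, since 702 bases of MRPL53 lie inside CCDC142 on the same strand, which rose (log2 change 0.67, adjusted p = 0.0157) and was highest in that library, at 580, 971 and 821 counts in siMCT4 libraries 1, 2 and 3. Without siMCT4 library 2 the log2 change was -0.94 (adjusted p = 0.00911), and without library 3 it was -1.76 (adjusted p = 0.0397).

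Among the other uncalled large-subunit genes MRPL34, the counterpart of bacterial L34, was at 13.5, 15.6 and 16.4 CPM in controls and 3.88, 3.70 and 13.4 CPM in siMCT4 (log2 change -1.11, adjusted p = 0.105), and without library 3 the value was -1.97 (adjusted p = 1.22e-05). MRPL41 was at 5.27, 2.18 and 2.64 CPM and then 0.767, 1.52 and 1.89 CPM (-1.27, adjusted p = 0.0513; -1.52 and adjusted p = 0.0269 without siMCT4 library 3, -0.77 and adjusted p = 0.19 without control library 1). After the GC correction MRPL41, the most GC-rich member, had -0.00487 (adjusted p = 0.993). MRPL34 and MRPL41 were chosen after their values were seen. The values of MRPL34 are uncertain, since 14174 bases of it overlap ABHD8 on the opposite strand and the strand rule of the counting is not known. Mean counts were 732 for MRPL34 and 677.5 for ABHD8. MRPL58, a peptidyl-tRNA hydrolase that became a ribosomal protein and is also known as ICT1, was at 13.0, 13.8 and 14.7 CPM and then 9.93, 9.18 and 13.3 CPM (-0.36, adjusted p = 0.0981; -0.51 and adjusted p = 0.00515 without siMCT4 library 3). MRPL46, the least abundant large-subunit mRNA after MRPL48, was at 10.2, 9.91 and 8.87 CPM and then 11.6, 11.6 and 11.2 CPM (0.25, adjusted p = 0.0875). Of these 4 genes the groups overlapped for MRPL58 alone.

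**Figure D2:**
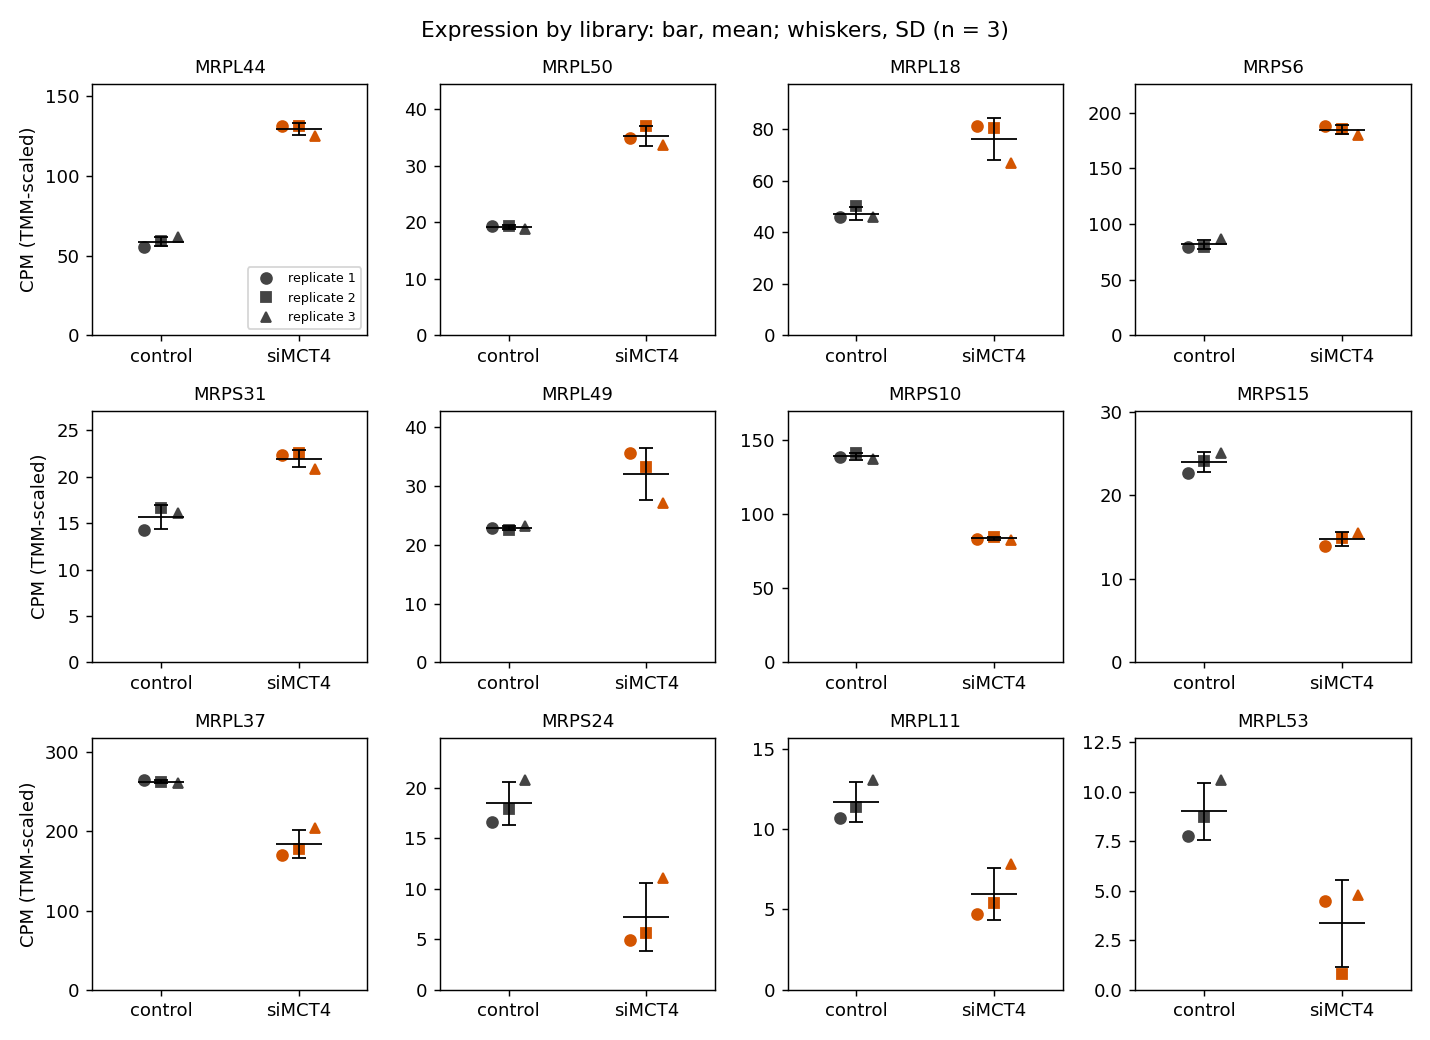
CPM (TMM-scaled) by library for 12 genes, control and siMCT4 on the x axis, each y axis starting at 0. Symbols are the 3 libraries of a group, the horizontal bar is their mean and whiskers their SD; MRPL44 and MRPS6 more than doubled with tight replicates, whereas the siMCT4 libraries of MRPS24, MRPL11 and MRPL53 are spread.

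In the small subunit 4 genes rose. MRPS6, the counterpart of bacterial S6 (chromosome 21, 34073224 to 34143034, plus strand), was at 79.5, 79.7 and 86.1 CPM in controls and 188, 186 and 180 CPM in siMCT4. Its log2 change of 1.18 (SE 0.050, adjusted p = 4.03e-06) was the highest of the 78 but is uncertain. The inositol transporter gene SLC5A3 lies inside it on the same strand, and rose from 238 to 752 CPM (1.66, adjusted p = 3.91e-07), so strand cannot separate the reads of these 2 genes. MRPS31, a mitochondria-specific protein (chromosome 13, 40729128 to 40771190, minus strand), was at 14.2, 16.7 and 16.1 CPM and then 22.3, 22.6 and 20.9 CPM (0.49, SE 0.0861, adjusted p = 0.00335). The pseudogene row MRPS31P5 had 39.4% of its count and was not called (-0.19, adjusted p = 0.291), so reads could have been divided between the copies.

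MRPS22, a mitochondria-specific protein, was at 35.3, 40.4 and 42.2 CPM in controls and 56.3, 53.9 and 46.4 CPM in siMCT4 (log2 change 0.41, SE 0.0960, adjusted p = 0.0118). No siMCT4 library was as low as a control, and library 3 was the nearest to the controls (0.26 in a fit of that library alone, also without a p-value). MRPS35 was at 54.7, 53.2 and 54.3 CPM and then 60.1, 61.7 and 68.0 CPM (0.23, SE 0.0604, adjusted p = 0.0202), and its call was lost without any 1 of the controls (adjusted p 0.0527 to 0.0782) and after the GC correction (0.16, adjusted p = 0.0627).

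Of the MRPS genes 10 fell, 8 of them in the small subunit by structure. MRPS10, a protein of the subunit's head (chromosome 6, 42206807 to 42217861, minus strand), was at 138, 141 and 137 CPM in controls and 83.4, 84.8 and 82.8 CPM in siMCT4. Its standard error was the lowest of the 78 genes (log2 change -0.73, SE 0.0410, adjusted p = 1.33e-05). MRPS15, the counterpart of bacterial S15 (chromosome 1, 36455718 to 36464384, minus strand), was at 22.7, 24.04 and 25.1 CPM and then 13.9, 14.9 and 15.5 CPM (-0.70, SE 0.0786, adjusted p = 0.000376). MRPS24, the counterpart of bacterial S3 at the mRNA entry (chromosome 7, 43866558 to 43869893, minus strand), was at 16.7, 17.9 and 20.8 CPM and then 4.95, 5.65 and 11.1 CPM (-1.35, SE 0.296, adjusted p = 0.00881). Library 3 was the highest of the siMCT4 group but below every control.

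MRPS5, at the mRNA entry, was at 57.6, 58.3 and 59.1 CPM in controls and 45.9, 47.0 and 46.1 CPM in siMCT4 (log2 change -0.33, SE 0.0469, adjusted p = 0.00112). MRPS27, a pentatricopeptide repeat protein, was at 60.2, 63.2 and 59.5 CPM and then 43.9, 52.7 and 45.4 CPM (-0.37, SE 0.0777, adjusted p = 0.00768). In neither gene did the groups overlap, but on log2(TPM + 1) neither was called (MRPS5 -0.12, adjusted p = 0.117; MRPS27 -0.15, adjusted p = 0.193). MRPS34 and MRPS26, mitochondria-specific proteins with GC-rich transcripts, lost their calls after the GC correction. MRPS34 was at 9.18, 8.43 and 9.44 CPM and then 6.18, 5.71 and 5.02 CPM (-0.68, SE 0.127, adjusted p = 0.0044), which became -0.000857 (adjusted p = 0.998). MRPS26 was at 3.51, 2.11 and 3.37 CPM and then 1.47, 1.11 and 1.96 CPM (-0.98, SE 0.289, adjusted p = 0.0292), which became -0.47 (adjusted p = 0.156), and it was not called without control library 1 or 3 or siMCT4 library 1 or 2 (adjusted p 0.0881 to 0.106). MRPS2, the counterpart of bacterial S2, was at 34.9, 34.9 and 33.8 CPM and then 27.5, 29.5 and 31.3 CPM (-0.23, SE 0.0670, adjusted p = 0.029). Its sign changed after the GC correction (0.15, adjusted p = 0.141), and it was called in just 1 of the fits without 1 library, that without siMCT4 library 3 (adjusted p 0.0704 to 0.134 in the other 5).

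Symbols and structure part ways for a few MRPS genes. MRPS30 and MRPS18A are named as small-subunit proteins but sit in the large subunit, and MRPS36 is a component of the 2-oxoglutarate dehydrogenase complex. MRPS30 was at 60.8, 50.0 and 54.0 CPM in controls and 32.4, 33.4 and 48.97 CPM in siMCT4 (log2 change -0.52, SE 0.164, adjusted p = 0.0381); library 3 was just below the lowest control, and it was not called without any 1 other library (adjusted p 0.0731 to 0.144) but was without siMCT4 library 3 (-0.71, adjusted p = 0.000256). MRPS18A was at 36.3, 37.4 and 36.6 CPM and then 32.0, 30.2 and 25.4 CPM (-0.33, SE 0.0908, adjusted p = 0.0222; -0.20 and adjusted p = 0.108 after the GC correction), with no call without any 1 control or without siMCT4 library 2 (adjusted p 0.0582 to 0.0767). Its paralogues MRPS18B and MRPS18C were not called. MRPS18B was at 10.95, 13.4 and 12.5 CPM and then 12.8, 15.6 and 10.3 CPM (0.07, adjusted p = 0.753), and MRPS18C at 10.95, 10.8 and 15.98 CPM and then 16.9, 17.8 and 13.2 CPM (0.35, adjusted p = 0.179). The differences between paralogues were not tested. MRPS36 was at 6.70, 7.00 and 9.41 CPM and then 8.80, 9.39 and 6.87 CPM (0.12, adjusted p = 0.647). MRPS12, a decoding-centre protein, was at 6.21, 7.03 and 7.19 CPM and then 2.33, 1.81 and 5.73 CPM (-1.05, SE 0.405, adjusted p = 0.076); as for MRPL34, library 3 lay near the controls, and without it the value was -1.69 (adjusted p = 0.000176). The least abundant pair were not called: MRPS33 had -0.20 (adjusted p = 0.364) and MRPS11 -0.25 (adjusted p = 0.145).

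Large and small subunits gave similar medians. The 49 MRPL genes had 9 falls (18.4%) and 6 rises (12.2%) and their median log2 change was -0.13. The 29 MRPS genes had 10 falls (34.5%) and 4 rises (13.8%) with a median of -0.12. Over all tested genes 20.8% fell and 20.6% rose. Assigned by structure, the 51 large-subunit genes had 11 falls (21.6%) and 6 rises (11.8%), with a median of -0.14. The 26 small-subunit genes had 8 falls (30.8%) and 4 rises (15.4%), with a median of -0.08. By origin, 31 large-subunit genes with bacterial homologues had 5 falls (16.1%) and 2 rises (6.45%), with a median of -0.08. The 20 mitochondria-specific ones had 6 falls (30%) and 4 rises (20%), with a median of -0.30. In the small subunit 16 genes with homologues had 5 falls (31.25%) and 1 rise (6.25%), with a median of -0.17. Its 10 mitochondria-specific genes had 3 falls (30%) and 3 rises (30%), with a median of 0.06. The split by origin is not even for paralogues: MRPS18A and MRPS18C were counted with the bacterial homologues and MRPS18B as mitochondria-specific. These differences between groups of members are descriptions and were not tested. The ratio of small to large subunit mRNA depended on the measure and on the assignment. By symbol and summed FPKM it was 0.510, 0.501 and 0.502 in controls and 0.479, 0.488 and 0.466 in siMCT4, with no overlap. By symbol and summed CPM it was 0.709, 0.694 and 0.702 in controls and 0.721, 0.727 and 0.693 in siMCT4, and the groups overlapped. By structure the pattern turned round: summed FPKM gave 0.409, 0.405 and 0.407 in controls and 0.398, 0.408 and 0.392 in siMCT4, with overlap, and summed CPM 0.576, 0.577 and 0.583 in controls and 0.628, 0.635 and 0.591 in siMCT4, higher and without overlap. MRPS6, whose reads are uncertain, is in these sums. It averaged 81.8 CPM in controls and 185 CPM in siMCT4. That rise was larger than the rise of the whole small subunit by structure, from a mean of 774 to 799 CPM. The higher ratio by structure and summed CPM therefore depended on MRPS6, and it is not evidence of a rise across the small subunit.

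The members' changes ran with the GC content of their transcripts. Across the 78 genes, GC content (from the longest GENCODE v29 transcript) and log2 change had a Pearson correlation of -0.47 and a Spearman correlation of -0.49, where the Pearson value over all tested genes with a GC value was -0.18. The genes share the same 6 libraries, so this is a description across genes. Of the 26 GC-poorest members (GC 33.5% to 43.8%) 4 fell (15.4%) and 6 rose (23.1%), with a median of 0.20. The 26 in the middle (GC 44.2% to 51.8%) had 6 falls (23.1%) and 3 rises (11.5%) and a median of -0.08. The 26 GC-richest (GC 52.2% to 71.9%) had 9 falls (34.6%) and 1 rise (3.85%) and a median of -0.34. Over all tested genes 20.8% fell and 20.6% rose. Against the control mean, median log2 ratios in siMCT4 libraries 1, 2 and 3 were 0.21, 0.27 and 0.07 for the GC-poorest genes and -0.42, -0.29 and -0.26 for the GC-richest, so the order was the same in each library and the spread least in library 3. With a correction for GC content the GC-richest genes had 2 falls and 1 rise (median -0.10), the middle 7 and 3 (-0.12) and the GC-poorest 4 and 5 (0.13). In that corrected fit 13 of the 78 members fell and 9 rose, beside 20.52% lower and 22.03% higher over its 19298 tested genes. The correction ended or reversed 8 of the 29 calls, 7 of them in the GC-richest genes.

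**Figure D3:**
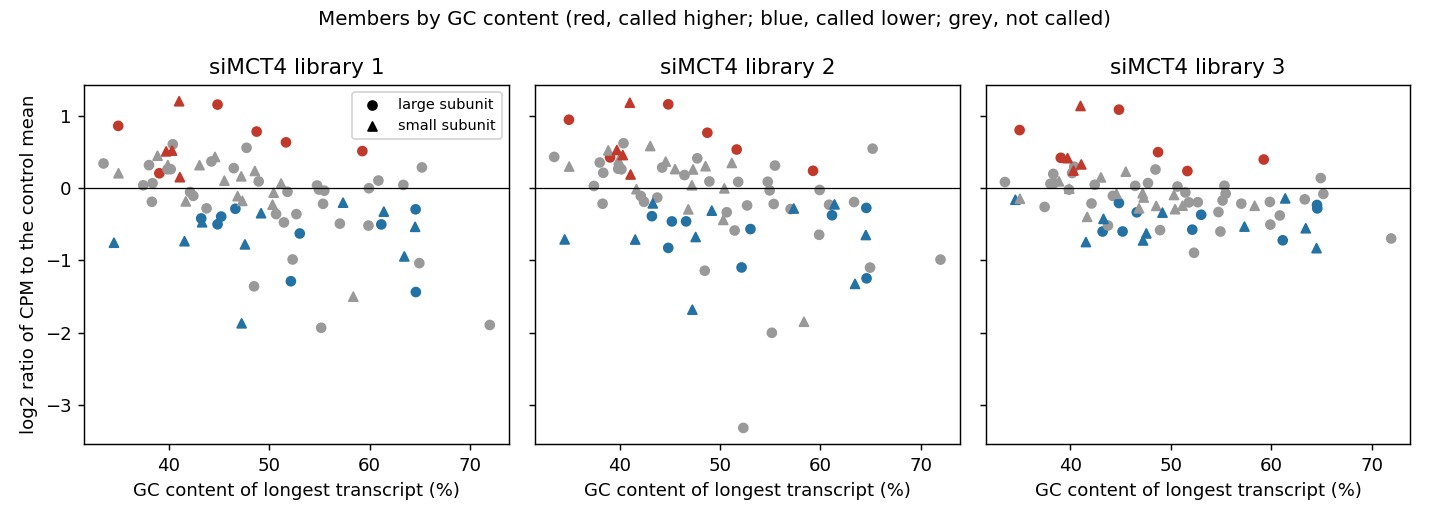
Log2 ratio of CPM to the control mean (y axis) against GC content of the longest transcript (x axis, %) for the 78 genes in siMCT4 libraries 1, 2 and 3. Circles are MRPL and triangles MRPS genes, coloured by call over all libraries. Many of the lowest ratios lie among GC-rich genes, but not all. MRPS24 (GC 47.2%) is at -1.87, -1.68 and -0.72 in libraries 1, 2 and 3, and MRPS10 (GC 41.6%) is at -0.75 in library 3. The lowest ratios are less extreme in library 3.

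Overlapping genes limit some values. By the deposited gene coordinates 42 members overlap another row of the table, 20 on the same strand and 34 on the opposite one. How strand entered the counting is not given in the sources used here. Of the 29 called members, 7 have an overlapping partner whose count is over 25% of theirs (4 rises, 3 falls). Besides MRPS6 these include MRPS22 with COPB2 on the opposite strand (log2 change 0.38, adjusted p = 0.00101), MRPL49 with SYVN1 (0.22, adjusted p = 0.0743), and MRPL40 with HIRA (0.08, adjusted p = 0.334) and C22orf39 (-0.66, adjusted p = 0.0023). Among the falls, partners moved the other way or were not called: SSBP3 beside MRPL37 (0.60, adjusted p = 3.59e-05), PTCD2 beside MRPS27 (0.40, adjusted p = 0.0192) and EME2 beside MRPS34 (-0.35, adjusted p = 0.411). MRPL44, MRPL50, MRPL18, MRPS31, MRPS10, MRPS15, MRPS24, MRPL11 and MRPL30 have no such partner.

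Genes that work with the mitochondrial ribosome also moved in both directions. Of 5 ribosomal proteins with other symbols PTCD3 (MRPS39) rose, at 57.4, 55.7 and 54.5 CPM in controls and 67.5, 68.4 and 66.0 CPM in siMCT4 (log2 change 0.27, adjusted p = 0.00339), and the other 4 were not called, with AURKAIP1 at -1.25 (adjusted p = 0.0518) and GADD45GIP1 at -0.46 (adjusted p = 0.0855). Of 16 translation factors 3 fell and 2 rose (31.3% called, beside 41.4% of all tested genes; median 0.07). OXA1L, which inserts nascent chains into the inner membrane, was at 176, 178 and 181 CPM and then 116, 113 and 101 CPM (-0.69, adjusted p = 9.8e-05). GUF1, the mitochondrial EF4 homologue, fell by 0.27 on the log2 scale (adjusted p = 0.00564) and MTRF1, a release factor, rose by 0.45 (adjusted p = 0.00638). Of 25 assembly and rRNA-modification factors 8 rose (32%, beside 20.6% of all tested genes) and 3 fell (12%, beside 20.8%), with a median of 0.18; the 44% called in all was near the 41.4% of all tested genes. The GTPase MTG2 was at 17.2, 18.0 and 20.1 CPM and then 29.4, 28.5 and 27.0 CPM (0.62, adjusted p = 0.000869). The GTPase NOA1 was at 20.3, 21.2 and 20.9 CPM and then 10.98, 9.48 and 11.5 CPM (-0.96, adjusted p = 0.000215), and the late assembly factor MALSU1 fell by 0.71 on the log2 scale (adjusted p = 0.0032).

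The ribosome's RNAs, read here only as far as they were captured with polyadenylated RNA, were lower. MT-RNR2, the large-subunit rRNA, was at 9555, 9211 and 8983 CPM in controls and 4078, 4144 and 3979 CPM in siMCT4 (log2 change -1.19, SE 0.0391), and MT-RNR1, the small-subunit rRNA, at 361, 344 and 370 CPM and then 195, 199 and 181 CPM (-0.90, SE 0.0527). Neither gene's groups overlapped. Of 9 genes of mitochondrial transcription and replication 3 rose and 1 fell (44.4% called, near the 41.4% of all tested genes). TFAM, which packages mitochondrial DNA and starts its transcription, was at 23.8, 24.7 and 25.3 CPM and then 18.0, 15.2 and 15.7 CPM (-0.60, adjusted p = 0.00125), while the helicase TWNK rose by 0.75 (adjusted p = 0.00318) and the transcription factor TFB2M by 0.35 (adjusted p = 0.00579). Among 11 regulators of nuclear genes for mitochondria 2 rose and 1 fell (27.3% called, beside 41.4% of all tested genes). The coactivator PPARGC1B was at 67.0, 65.4 and 62.7 CPM and then 167, 158 and 159 CPM (1.31, adjusted p = 2.25e-06), MAX rose by 0.41 (adjusted p = 0.00076) and GABPB1 fell by 0.41 on the log2 scale (adjusted p = 0.00817). NRF1 (-0.23, adjusted p = 0.153), GABPA (0.01, adjusted p = 0.941), YY1 (0.01, adjusted p = 0.838) and MYC (-0.08, adjusted p = 0.764) were not called.

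The cytosolic ribosome and respiratory complex I, the entry of electrons into the chain, give sets of 84 and 37 genes to set beside these 78. Of 83 tested cytosolic ribosomal protein genes 76 fell (91.6%) and 0 rose, with a median of -0.81. Of 37 nuclear complex I subunit genes 22 fell (59.5%) and 1 rose (2.70%), with a median of -0.43. Over all tested genes 20.8% fell and 20.6% rose. Medians for siMCT4 libraries 1, 2 and 3 against the control mean were -0.72, -0.67 and -1.10 for the cytosolic set, -0.35, -0.31 and -0.52 for complex I and -0.06, -0.07 and -0.16 for the 78 genes. The order of the 3 sets was the same in each library, and the difference between sets was not tested.

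**Figure D4:**
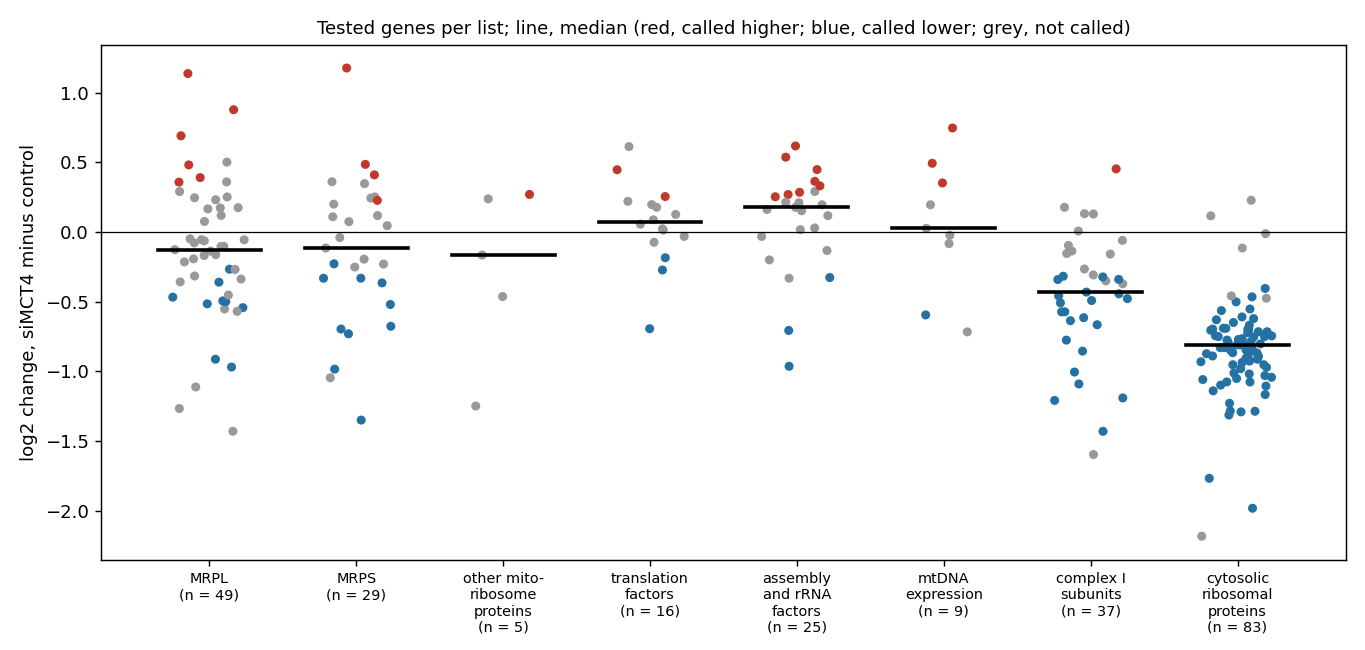
Log2 change (siMCT4 minus control, edgeR) of every tested gene in 8 lists, with the number tested under each name. Points are genes coloured by call and black lines are medians; MRPL and MRPS genes lie on both sides of 0 with medians of -0.13 and -0.12, and cytosolic ribosomal proteins lie mostly below 0 with a median of -0.81.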

How the data were processed

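Paired-end libraries of poly(A) RNA were prepared with dUTP strand marking, per the labels' protocols. The read trimmer cutadapt 1.9, the aligner HISAT2 2.2.1 and the build GRCh38 are named in the submitters' processing notes. How reads were assigned to genes, with which annotation and strand rule, is not given in the sources used here. The deposited values are raw counts and FPKM of 35009 genes, per the file headers. Even numbers made up 58.7% to 60.9% of counts from 2 to 41.

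Counts were tested with edgeR 4.0.16 (R 4.3.3; quasi-likelihood, TMM, filterByExpr with a minimum count of 10 and total of 15; Benjamini-Hochberg over 19944 genes; two-sided, called under 0.05). SE is the log2 change over the square root of F. The common biological coefficient of variation was 0.219. FPKM served to compare levels between genes and in the alternatives. The method was tested on simulated data. Alternatives used DESeq2 1.42.0, limma 3.58.1 (pseudocounts 1 and 0.1), other scalings, GC correction by lowess (span 0.3), and left-out libraries.

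Per-library values are given for called members, the most and least abundant ones, stalk proteins, MRPL58, MRPS12, the MRPS18 paralogues, MRPS30 and MRPS36; other lists are shown by up to 3 genes of smallest adjusted p, with other names chosen after their values were seen. Members and lists were chosen with earlier results of these data known. Gene coordinates are those of the deposited table (GRCh38), and GC content is from GENCODE v29.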

Additional observations from a re-analysis of the deposited data

How the results depend on the processing

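For 41 named members under 18 alternatives (738 values), 570 kept direction and side of the threshold, 135 lost the call, 20 gained one and 13 changed sign. Counts are given as MRPL falls and rises, then MRPS. With library totals there were 5 MRPL falls and 11 rises (medians -0.0409 for MRPL and -0.0294 for MRPS), and DESeq2 gave 10 MRPL rises. Limma on log2(FPKM + 1) and on log2(FPKM + 0.1) each gave 4 and 12, and 6 MRPS falls; the medians were -0.0143 and -0.00864, and -0.0208 and -0.00984. Without a filter on FPKM falls numbered 3 and 5 (medians -0.0143 and -0.00864) and complex I calls 11. On log2(TPM + 1) there were 3 and 14, and 4 and 8, the medians reversed to 0.0688 and 0.0804, 5 regulators and 12 complex I genes were called. The medians after the GC correction were -0.0522 and -0.0125. Of the proteins with other symbols 2 were called on both FPKM scales, with siMCT4 library 3 alone, with the block and with either GC correction, and library 3 alone gave 5 assembly factors. Leaving out 1 library gave 4 to 17 MRPL falls, 4 to 12 MRPL rises, 6 to 11 MRPS falls, 3 to 8 MRPS rises, medians of -0.177 to -0.0509 and -0.16 to -0.00936, and calls of 15 to 23 (complex I), 68 to 78 (cytosolic ribosome), 8 to 13 (assembly), 3 to 6 (translation factors), 3 to 6 (transcription), 2 to 5 (regulators) and 1 to 2 (other symbols); SLC16A3 ran from -3.28 to -3.12. Sign changes were MRPL10 (0.0368 with library totals, 0.0519, 0.0565 and 0.0519 on the FPKM scales, 0.15 on TPM, -0.0997 to 0.0445 with 1 library left out, the highest without siMCT4 library 3), MRPL38 (0.39, and 0.37 with the block), MRPS2 (0.15 with either GC correction), MRPS18B (-0.0627 to 0.24 with 1 library left out, the lowest without siMCT4 library 2, and -0.23 with library 3 alone) and MRPS36 (-0.15 with library 3 alone). The causes were not tested.

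Replicate numbers did not pair the libraries: same-numbered deviations correlated at -0.0616, -0.00295 and -0.0547. A replicate block gave 19 falls and 7 rises in all; with the GC correction as well it gave 6 MRPS falls and 2 rises, an MRPL median of -0.0534 and 3 translation factors. Members had at least 49 counts in every library.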
